A study of Mus musculus with 4 samples.

Results

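In 4 libraries of the developing mouse molar, 469 of 42164 filtered cells of all types passed a rule on 4 genes known from the suprabasal oral lining. Cells were chosen by their unique molecular identifier (UMI) counts, each UMI standing for 1 captured messenger molecule: at least 5 UMIs summed over Krt13, Krt4, Krt6a and Sprr1a, at least 2 over Epcam, Cdh1, Krt14 and Krt5, and at most 10 over Col1a1, Col1a2 and Col3a1. The 4 genes of the first sum are called gate genes below and the chosen cells gate cells. The E15.5 maxillary library held 237 of them among 9679 filtered cells (2.45% [2.15, 2.78], exact binomial interval), the E15.5 mandibular library 18 of 6582 (0.273% [0.162, 0.432]), the P1 maxillary library 147 of 16486 (0.892% [0.753, 1.05]) and the P1 mandibular library 67 of 9417 (0.711% [0.552, 0.903]). Of the cells within the epithelial and collagen limits, which numbered 813, 113, 2662 and 1732 in the same order, gate cells were 29.2%, 15.9%, 5.52% and 3.87%. Wherever 4 values are listed below, they stand in the order E15.5 maxillary, E15.5 mandibular, P1 maxillary and P1 mandibular, and lists of 3 leave out E15.5 mandibular. Intervals throughout are 95% intervals of counting error, not of animals.

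All 4 libraries came from wild-type C57BL/6J mice, listed as WTB6, with no allele or treatment. Tooth organs of the upper (maxillary) or lower (mandibular) molar were dissected at E15.5, an embryonic day, or at P1, the first postnatal day, 6 organs were pooled for each library, and dissociated cells were sequenced on the 10x Genomics platform. The age field of the embryonic samples reads E15 and their protocol E15.5, and the protocol of the postnatal samples reads P0/P1. Each stage and jaw is 1 library, so no difference between libraries has a replicate check, and stage, dissection and library cannot be told apart. Library totals were 109723360, 86659227, 128812956 and 139873101 UMIs. Gate cells had medians of 15967, 20985.5, 8433 and 15775 UMIs, and levels are given as counts per 1e6 UMIs (CPM) after summing all UMIs of a class of cells in a library. The counts are of transcript ends, and levels are compared between cells within a gene. Where a gene is named as giving most UMIs of a sum, this is a share of captured UMIs and not a level per length.

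Stratified oral epithelium is renewed from a basal layer that holds Krt5, Krt14, the transcription factor Trp63 and the integrins of hemidesmosomes. Cells that leave this layer switch to suprabasal keratins, of which Krt4 and Krt13 form the pair typical of soft, non-cornified mucosa, while Krt1 and Krt10 form that of dry, cornified surfaces. Further up they add desmosomes, secreted surface proteins and precursors that transglutaminases cross-link into the envelope of the outermost cells. Krt6a marks filiform papillae, hair companion cells, wounded epithelium and the periderm, the flat cell sheet that covers embryonic epithelia, and Sprr1a is an envelope precursor. The tooth germ buds from the same oral epithelium, so a dissected molar carries some of the lining that overlies it.

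Krt13 lies at chr11:100117327-100121566 on the minus strand, Krt4 at chr15:101918535-101924735 and Krt6a at chr15:101689910-101694307, both on the minus strand, and Sprr1a at chr3:92483952-92485895, also on the minus strand (mouse build mm10, which is GRCm38; GENCODE vM21 annotation). The 250 bases before the start site are shown for Krt13, which gave most of the gate UMIs, for Sprr1a, and for Cnfn (chr7:25367620-25369724, minus strand), a cornified envelope gene that was not part of the rule. They come from RefSeq promoter entries on GRCm38.p6 and are printed 5′ to 3′ on the strand of the gene. Capitals mark any match to TGANTCA, a loose form of the AP-1 site that allows any base in the middle. That motif reads the same on both strands and was found in 6.75% of 32851 promoters of this length (2217). Krt4 and Krt6a are named only.
Krt13 first start site, chr11:100121567-100121816: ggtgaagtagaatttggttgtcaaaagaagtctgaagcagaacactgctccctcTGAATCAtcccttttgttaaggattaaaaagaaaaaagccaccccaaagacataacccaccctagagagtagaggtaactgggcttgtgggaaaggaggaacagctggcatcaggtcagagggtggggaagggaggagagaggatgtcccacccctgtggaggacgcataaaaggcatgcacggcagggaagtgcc
Krt13 second start site, chr11:100120578-100120827: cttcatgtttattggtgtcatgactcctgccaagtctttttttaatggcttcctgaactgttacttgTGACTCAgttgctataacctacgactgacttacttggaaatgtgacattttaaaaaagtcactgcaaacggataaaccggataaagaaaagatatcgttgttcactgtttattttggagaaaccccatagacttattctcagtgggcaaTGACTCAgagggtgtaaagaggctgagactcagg
Sprr1a, chr3:92485882-92486131: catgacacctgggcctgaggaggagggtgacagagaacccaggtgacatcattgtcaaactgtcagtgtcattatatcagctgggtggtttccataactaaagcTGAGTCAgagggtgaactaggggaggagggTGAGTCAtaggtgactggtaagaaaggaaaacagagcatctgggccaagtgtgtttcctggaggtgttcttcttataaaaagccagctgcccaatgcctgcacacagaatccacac
Cnfn, chr7:25369725-25369974: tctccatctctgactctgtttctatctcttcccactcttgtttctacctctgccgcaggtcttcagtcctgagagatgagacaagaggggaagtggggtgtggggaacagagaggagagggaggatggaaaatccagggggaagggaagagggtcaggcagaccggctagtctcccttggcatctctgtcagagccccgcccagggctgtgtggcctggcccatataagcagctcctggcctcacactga
The motif occurred 1 time before the first Krt13 start, 2 times before the second, 2 times before the Sprr1a start, where the matches begin 146 and 116 bases upstream, and 0 times in the Cnfn window. The match before the first Krt13 start has A as its middle base, and the others have C or G. A match describes letters only.

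The 2 postnatal libraries shared cell barcodes. They had 7131 barcodes in common, against 28 to 70 for the other pairs of libraries. The rule kept shared barcodes in the P1 maxillary library and dropped them from the P1 mandibular one, so 72 of the 147 P1 maxillary gate cells carried a barcode that the mandibular library also held. These 72 had a median of 14714 UMIs in the maxillary matrix and 3387.5 in the mandibular one, the median log2 ratio was 2.08, and the 5th to 95th percentiles of that ratio spanned 2.02 to 2.14. In the mandibular matrix 43 of the 72 held at least 5 gate UMIs. The other 75 P1 maxillary gate cells had a median of 3985 UMIs. A gene counts as past 2-fold when its levels differ by that much and the higher one reaches 50 CPM. Such genes were 224 of 3678 between the shared barcodes and the P1 mandibular gate cells (6.09%), 722 of 4059 between the unshared ones and the mandibular cells (17.8%), and 492 of 3962 between shared and unshared (12.4%). Whether the shared barcodes belong to the upper molar was not tested, so counts of P1 maxillary genes are also given without them, which leaves 18 high-gate cells.

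Krt13 accounted for 67.8%, 67.6%, 62.6% and 62.3% of the gate UMIs and Krt6a for 25.1%, 11.6%, 23.9% and 10.9%. Krt4 gave 6.39%, 19.2%, 12.7% and 26.2%, and Sprr1a gave 0.696%, 1.61%, 0.769% and 0.559%. A Krt13 UMI was seen in 217 of 237, 15 of 18, 129 of 147 and 44 of 67 gate cells. Immune cells, which should lack Krt13, held a UMI in 11.1%, 1.72%, 2.04% and 2.59% of cells, at median depths of 10403, 13633, 3021 and 7476.5 UMIs. A single Krt13 UMI is therefore not separable from free RNA in the E15.5 maxillary library, where the share in immune cells was highest.

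Gate UMIs per cell ran over several orders of magnitude. They ranged from 5 to 5139, 7895, 3652 and 2020, with medians of 26, 63, 28 and 34. Cells with at least 100 gate UMIs, called high-gate cells below and set apart after the values had been seen, numbered 78, 8, 43 and 26 and held 93.4%, 98.5%, 90.3% and 94.2% of all gate UMIs. Of the 43 P1 maxillary high-gate cells, 25 had a shared barcode and 18 did not. At the threshold, 56, 6, 37 and 16 cells lay just inside with 5 to 9 gate UMIs, and 56, 1, 41 and 15 lay just outside with 3 or 4.

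**Figure D1:**
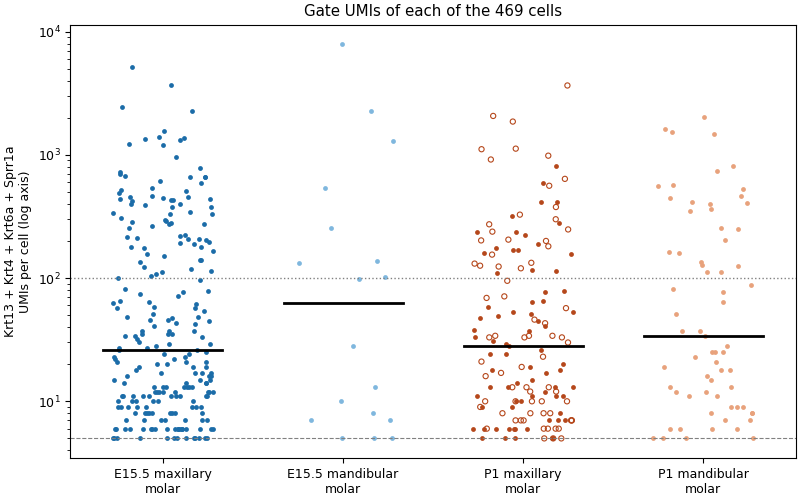
Each point is 1 of the 469 gate cells, grouped by library, with its summed Krt13, Krt4, Krt6a and Sprr1a UMIs on a log axis. Open circles are P1 maxillary cells whose barcode the P1 mandibular library also held, black lines are medians (26, 63, 28 and 34), the dashed line is the threshold of 5 UMIs and the dotted line 100 UMIs. Above the dotted line lie 78 of 237, 8 of 18, 43 of 147 and 26 of 67 cells.

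The label of these cells, suprabasal oral epithelium, was checked against genes outside the gate, and these were highest in the high-gate cells, except for Cnfn in the P1 mandibular library. Cnfn, whose product joins the cornified envelope, had levels of 0, 1.13, 2.58 and 170.1 CPM at E15.5 in the maxillary library over the classes of 5 to 9, 10 to 19, 20 to 99 and at least 100 gate UMIs. In the P1 maxillary library the Cnfn levels were 0, 0, 11.7 and 89.9 CPM and in the P1 mandibular one 0, 0, 8.83 and 0 CPM. In the maxillary libraries Cnfn thus reached at least 50 CPM only in the highest class. There 19 of 78 cells at E15.5 and 11 of 43 at P1 held a Cnfn UMI, and the others none. Of all Cnfn UMIs in gate cells, 3 cells held 62.6% at E15.5 maxillary and 62.3% at P1 maxillary. In the mandibular P1 library Cnfn rested on 2 UMIs of 1 cell. In the E15.5 mandibular library it reached 459 CPM in the highest class, with all 103 UMIs in 2 of the 18 gate cells. Ly6d, a surface protein of stratified epithelia, read 195, 715, 479.6 and 5351 CPM at E15.5, 271, 470.2, 1279.8 and 5894 CPM in the P1 maxillary library and 802, 3463, 2292 and 5736 CPM in the P1 mandibular library. Krtdap, a secreted protein of differentiating keratinocytes, was already present in cells with 5 to 9 gate UMIs of the maxillary libraries (874, 1058, 1716 and 3537 CPM in the E15.5 maxillary library, 370.0, 529, 1046 and 3458 CPM in the P1 maxillary library) and was higher in each next class of the E15.5 library. Cells with 5 to 9 gate UMIs thus held no Cnfn and less Ly6d and Krtdap than high-gate cells, and the results below are led by the high-gate cells.

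The basal genes Itga6 and Trp63 ran the other way across the same classes, unlike the basal keratin Krt5. Itga6, the alpha subunit of the hemidesmosome integrin, had levels of 121, 108, 115 and 49.9 CPM at E15.5 maxillary, 229.8, 170.4, 179 and 60.9 CPM at P1 maxillary and 225, 87.3, 177 and 99.9 CPM at P1 mandibular. Trp63, the transcription factor that maintains stratified epithelium, had 276, 362, 309 and 139 CPM, 429.8, 291, 404 and 199 CPM and 397, 477, 389 and 135 CPM. Both were lowest in high-gate cells of the maxillary libraries, while Itga6 at P1 mandibular was lowest in the class of 10 to 19. Krt5, which was itself part of the rule, stayed high throughout, at 2869, 2807, 3979 and 4186 CPM in the E15.5 maxillary library. Sostdc1, a secreted Wnt and BMP inhibitor of dental epithelium, read 216, 338, 269 and 68.9 CPM at E15.5 maxillary, 255, 285, 155 and 53.9 CPM at P1 maxillary and 218, 161, 92.7 and 4.16 CPM at P1 mandibular. The gate was used to form these classes, so the gradients are a description without a test.

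**Figure D2:**
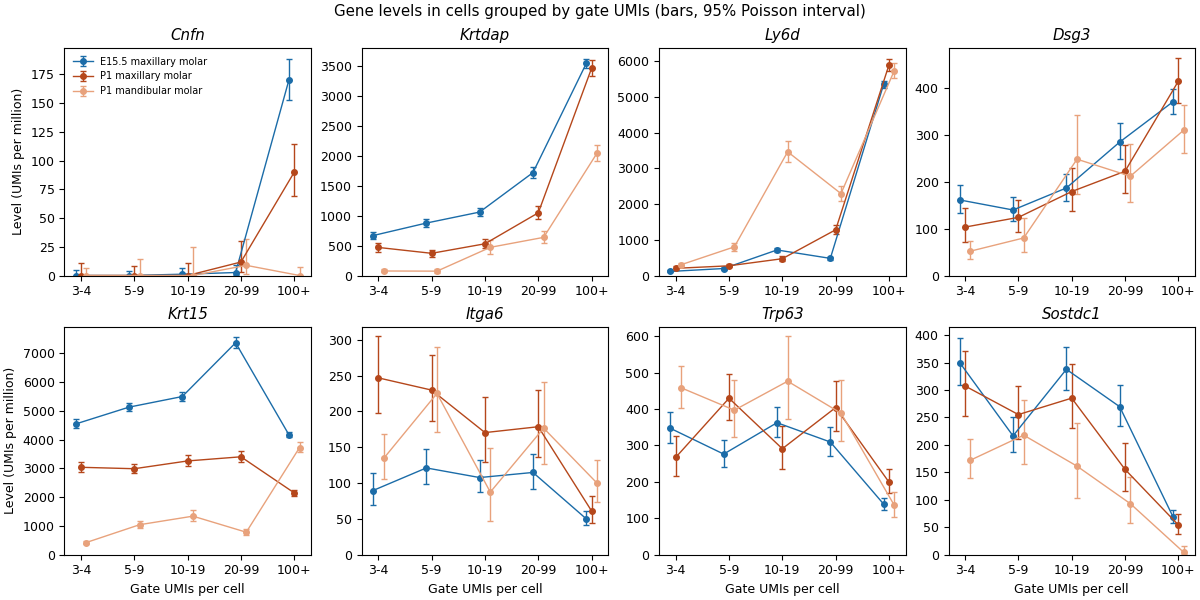
CPM levels of 8 genes outside the gate (vertical axes, each starting at 0) in cells grouped by gate UMIs per cell (horizontal axes, from 3 to 4, just outside the threshold, to at least 100) for 3 libraries, with 95% Poisson intervals. Cnfn, Krtdap, Ly6d and Dsg3 peak in the class of at least 100 in the maxillary libraries, and Itga6, Trp63 and Sostdc1 are lowest there.

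The high-gate cells were set beside Krt5/Krt14 epithelium of the same library, which is every cell with at least 10 Krt5 and Krt14 UMIs, at most 1 gate UMI and the same epithelial and collagen limits. It numbered 306, 54, 906 and 1154 cells with median depths of 12458.5, 16446, 13317.5 and 13323 UMIs. At P1 it held much enamel-organ RNA, since ameloblast markers summed to 8415 CPM in the maxillary and 24844 CPM in the mandibular reference, so the reference was in part tooth epithelium. High-gate cells were higher past 2-fold for 333 of 3890 genes at E15.5 maxillary (8.56%), 456 of 4146 at P1 maxillary (11%) and 440 of 4072 at P1 mandibular (10.8%). They were lower for 397 (10.2%), 760 (18.3%) and 923 (22.7%). Median log2 ratios over all these genes were -0.13, -0.22 and -0.26, and ratios below are to be read against these shifts. Over all gate cells instead of high-gate ones, the shares past 2-fold were 5.43% higher and 4.12% lower at E15.5 maxillary, 9.28% and 10.8% at P1 maxillary, and 8.37% and 11.9% at P1 mandibular, with a median log2 of -0.12 at P1 maxillary. Nothing is read from these shares, because the gate itself set the classes apart.

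Envelope genes that reached 50 CPM in either class stood higher in high-gate cells, a direction set in part by that filter. Sprr1a is a gate gene and was left out of these counts, since the rule fixed its direction. Of the 35 other listed precursors and cross-linkers, 8, 9 and 6 reached 50 CPM, and all of these were past 2-fold higher, with median log2 ratios of 3.86, 6.08 and 4.50. In Krt5/Krt14 epithelium these 35 genes together summed to 462, 119 and 102 CPM. At P1 most compared genes could therefore enter only through the high-gate class, which fixed their direction. The 50 CPM filter can act in the same way on the other lists below, so such counts are a description. Sbsn, a secreted protein of the suprabasal layers, stood at 622, 2127, 761 and 260.3 CPM in high-gate cells of the 4 libraries and at 14.7, 15.48, 11.3 and 12.6 CPM in Krt5/Krt14 epithelium. Its log2 ratios were 5.40 [5.04, 5.78], 6.08 [5.81, 6.35] and 4.37 [4.04, 4.70], and 8.32 [5.82, 13.63] at P1 maxillary without shared barcodes. Tgm3, a transglutaminase that cross-links the envelope, stood at 39.9, 401, 60.9 and 43.7 CPM against 0.223, 0, 0.0757 and 0.118 CPM. Both genes were higher in high-gate cells of every library. Not all envelope genes were detected, since Ivl, which encodes the precursor involucrin, had 0 UMIs in high-gate cells of every library, and 16, 24, 16 and 20 of the 36 listed genes had 0 UMIs in all gate cells.

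Other surface genes followed the same direction. Of the calcium-binding and secreted surface proteins, 15 of 18, 15 of 18 and 12 of 17 compared genes were higher and 0, 0 and 2 lower, the last pair being S100a8 and S100a9, which are neutrophil genes. Ly6d stood at 5351, 10122, 5894 and 5736 CPM against 85.3, 53.2, 6.28 and 20.5 CPM. Fam25c stood at 244, 972, 553 and 608 CPM against 1.56, 0, 0.151 and 0.295 CPM. The 2 classes were far apart for both genes, with Ly6d log2 ratios of 5.97 [5.82, 6.12], 9.87 [9.56, 10.21] and 8.13 [7.97, 8.29]. Of the proteases and protease inhibitors, 10 of 11, 11 of 12 and 10 of 11 were higher and none was lower. Spink5, an inhibitor of the kallikreins that shed surface cells, stood at 153, 619.8, 380.3 and 454 CPM against 10.3, 1.94, 4.995 and 6.66 CPM, and Csta1, a cysteine protease inhibitor, at 105, 366, 281 and 287 CPM against 1.79, 3.87, 0.151 and 0.118 CPM. Csta1 was 112 CPM in the P1 maxillary cells with unshared barcodes, near its E15.5 level. Barrier lipid genes were higher for 4 of 5, 4 of 5 and 3 of 4, with Elovl6, an elongase of fatty acids, lower at P1 maxillary but not without shared barcodes (82.2 against 55.2 CPM), and Fabp5, a fatty acid carrier, stood at 6472, 9212, 5287 and 5161 CPM against 944, 1298, 715 and 683 CPM.

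Among desmosome genes 9 of 11 were higher in each of the 3 libraries, namely Dsg1a, Dsg1b, Dsg3, Dsc2, Dsp, Jup, Pkp1, Pkp3 and Perp. Dsg1a, a desmosomal cadherin of upper layers, stood at 274, 579.7, 485 and 416 CPM against 8.49, 3.87, 13.2 and 12.1 CPM, with log2 ratios of 5.01 [4.54, 5.53], 5.20 [4.93, 5.47] and 5.10 [4.81, 5.39]. Dsp, the plaque protein desmoplakin, stood at 1825, 2207, 2442 and 2065 CPM against 448, 372, 409.9 and 371 CPM, with log2 ratios of 2.02 [1.95, 2.10], 2.57 [2.50, 2.65] and 2.48 [2.38, 2.57]. Dsg2, the cadherin of simple epithelia, was lower, at 62.7, 4.46, 52.6 and 31.2 CPM against 113, 202, 193 and 172 CPM, past 2-fold in both P1 libraries. The desmosomal cadherins thus stood on both sides. None of the tight junction genes that reached 50 CPM, 3, 2 and 2 of 17, was past 2-fold, but Cldn4 and Tjp1 were higher, 2 of 3, at P1 maxillary without shared barcodes.

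**Figure D3:**
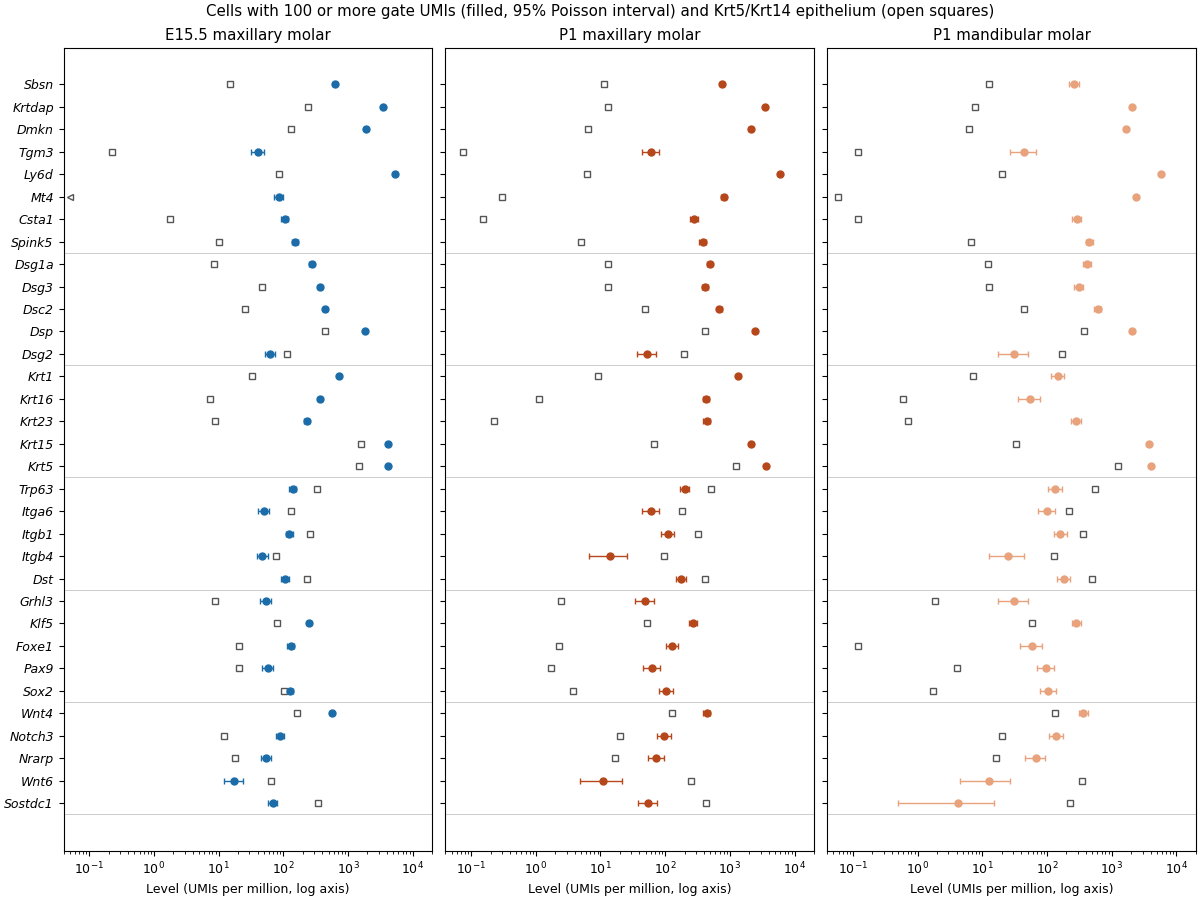
Levels of 33 genes in CPM on a log axis for 3 libraries, with high-gate cells as filled points (95% Poisson intervals) and Krt5/Krt14 epithelium as open squares; a triangle at the left edge is a level of 0. From top to bottom the blocks are envelope and surface, desmosomes, keratins, basal layer, transcription factors, and Wnt and Notch genes. Filled points lie to the right of the squares in the top block and to the left in the basal block.

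Keratins outside the gate separated the classes as well. Krt23, an acidic keratin, stood at 232, 575, 437 and 281 CPM in high-gate cells against 8.93, 4.84, 0.227 and 0.707 CPM, and Krt16, the partner of Krt6a, at 375, 325, 433 and 54.1 CPM against 7.37, 0.968, 1.14 and 0.589 CPM. Krt1, a keratin of dry surfaces, was present too, at 737, 401, 1358 and 148 CPM against 33.3, 15.48, 9.16 and 7.31 CPM, with log2 ratios of 4.47 [4.23, 4.72], 7.21 [6.94, 7.50] and 4.34 [3.90, 4.77]. A single E15.5 maxillary cell held 849 of the 1659 Krt1 UMIs of its gate cells, and 1 E15.5 mandibular cell 78 of 94. The usual partner of Krt1, Krt10, stood at 60.3, 49.0, 314 and 20.8 CPM against 82.0, 101, 33.6 and 29.2 CPM. Among the 3 libraries compared Krt10 was past 2-fold higher at P1 maxillary. Without shared barcodes Krt10 was at 52.8 CPM at P1 maxillary and was not past 2-fold. Among all P1 maxillary gate cells, 1 cell held 161 of the 353 Krt10 UMIs. The basal keratin Krt5 stood at 4186, 4049, 3590.3 and 4098 CPM against 1481, 1008, 1239.9 and 1245 CPM. Krt5 and Krt14 were part of the rule and also defined the reference, so their values are a description. The counts of basal genes here and below include both. Krt15, a basal keratin of stratified epithelia, stood at 4166, 2096, 2145 and 3723 CPM against 1561, 335, 67.9 and 33.3 CPM. High-gate Krt15 levels lay within 2-fold of each other while reference levels spanned more, with log2 ratios of 1.42 [1.37, 1.46], 4.98 [4.86, 5.10] and 6.80 [6.67, 6.94]. Of the other basal genes none was higher except Krt14 at P1 maxillary (log2 1.04 [0.97, 1.10]), and 5 of 12, 6 of 11 and 8 of 12 listed basal genes were lower. Without shared barcodes 0 of 11 were higher at P1 maxillary and 5 lower, with log2 ratios of 0.45 [0.25, 0.64] for Krt5 and 0.27 [0.09, 0.45] for Krt14. Over all gate cells the same list of 12 had 2, 5 and 2 higher and 0, 0 and 2 lower. With shared barcodes kept, no basal gene was thus past 2-fold lower over all gate cells of the maxillary libraries. Without them Itga6, Dst and Trp63 were past 2-fold lower at P1 maxillary. In high-gate cells Itga6, Itgb1, Dst, Lamb3 and Trp63 were lower in all 3 libraries, though Lamb3 was not past 2-fold at P1 maxillary without shared barcodes. Trp63 stood at 139, 40.1, 199 and 135 CPM against 329, 333, 516 and 556 CPM.

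Transcription factors differed between the classes in both directions. Of the stratification factors, 8 of 19, 11 of 18 and 6 of 16 were higher and 2, 2 and 3 lower, the lower ones being Trp63 and Maf with Id1 at P1 mandibular. Klf5, a zinc-finger factor of epithelial differentiation, stood at 249.9, 201, 271 and 285 CPM against 79.3, 51.3, 52.2 and 57.9 CPM. Without shared barcodes 8 of 17 were higher at P1 maxillary and 4 lower (Trp63, Ehf, Cebpb and Maf). Klf5 was then at 223 against 129.9 CPM, under 2-fold, and Ehf, an epithelial Ets factor that was higher with the shared barcodes, was lower at 17.6 against 81.2 CPM, on 3 UMIs. Grhl3, which drives barrier formation, stood at 53.2, 89.2, 48.4 and 31.2 CPM against 8.93, 13.5, 2.50 and 1.89 CPM, under 50 CPM at P1 in both classes and so not compared there. Among oral and dental identity factors 3 of 9, 4 of 11 and 4 of 12 were higher, and 2, 5 and 5 lower. Foxe1, a forkhead factor of the oral and pharyngeal lining, stood at 131, 129, 127 and 58.3 CPM against 20.6, 3.87, 2.27 and 0.118 CPM. Pax9, needed for tooth buds and for the tongue and palate lining, stood at 57.0, 62.4, 62.2 and 95.8 CPM against 20.3, 7.74, 1.74 and 4.07 CPM. Sox2, which marks oral epithelium and the dental lamina, stood at 127, 152, 104 and 104 CPM against 102, 38.7, 3.71 and 1.71 CPM, and its log2 ratios were 0.32 [0.10, 0.54], 4.81 [4.27, 5.36] and 5.93 [5.24, 6.64]. At P1 the lower ones were Tbx1, Dlx3, Dlx2, Msx2 and Sp6 in both jaws. Without shared barcodes the P1 maxillary levels were 211 CPM for Foxe1, 35.2 CPM for Pax9 and 135 CPM for Sox2, where Pax9 rests on 6 UMIs.

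Genes of the Wnt and Notch pathways were few, and members stood on both sides. Wnt ligands bind Frizzled receptors, and Sostdc1 and the Dkk proteins limit them, while Notch receptors are read by ligands on neighbouring cells and their targets include Nrarp and the Hes genes. Of 30 Wnt pathway genes, 1 of 5, 2 of 8 and 1 of 8 compared were higher and 3, 5 and 5 lower. Wnt4 was the ligand higher in all 3 libraries, at 556, 740.2, 437 and 366 CPM against 165, 98.7, 127 and 131 CPM, with log2 ratios of 1.75 [1.62, 1.89], 1.78 [1.60, 1.95] and 1.49 [1.26, 1.71] and 1.64 [1.19, 2.09] at P1 maxillary without shared barcodes. Wnt6, a ligand of dental and surface epithelium, was lower at 17.1, 0, 11.1 and 12.5 CPM against 64.1, 64.8, 247 and 343 CPM. Sostdc1 was lower as well, at 68.9, 0, 53.9 and 4.16 CPM against 345, 332, 426 and 225 CPM, though 188 CPM remained in the 18 unshared P1 maxillary cells. Of 16 Notch genes, Notch3 and Nrarp were higher in all 3 libraries. Notch3 stood at 89.3, 93.6, 96.8 and 139.5 CPM against 12.1, 20.3, 19.8 and 20.1 CPM and Nrarp at 54.6, 75.8, 71.9 and 66.6 CPM against 17.6, 11.6, 16.7 and 16.1 CPM. In the 18 unshared P1 maxillary cells Notch3 was 41.1 CPM, under the 50 CPM needed to be counted, against 6.50 CPM. Notch2 and Jag2 were lower in both P1 libraries, with Rbpj in the maxillary one. Without shared barcodes Rbpj was the 1 lower gene of 4 compared, and Notch2 was at 88.1 against 94.2 CPM.

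The P1 maxillary comparison over all gate cells changed in part when shared barcodes were left out of both classes, since 63 of the 906 reference cells remain, at a median of 3866 UMIs. Genes past 2-fold were then 432 of 4230 higher (10.2%) and 392 lower (9.27%), as against 379 and 443 with them. Envelope genes other than the gate gene Sprr1a were higher for 8 of 8 compared genes, and for 6 of 6 with the shared barcodes. Desmosome genes were higher for 8 of 11 (9 of 11 with them), proteases and their inhibitors for 12 of 13 (11 of 12) and surface proteins for 14 of 18 (14 of 17). Tight junction genes were higher for 4 of 5, and for 0 of 2 with them. Of 12 basal genes 1, Krt15, was higher and 3 were lower, where 5 were higher and 0 lower with the shared barcodes, and Trp63 had a log2 ratio of -1.62 [-2.08, -1.18]. Of the Wnt genes 0 of 7 were higher and 4 lower, against 2 of 8 and 5. Of the oral and dental identity factors Sox21 and Foxe1 were higher, and Dlx2, Msx2 and Lef1 were lower. Sox2 stood at 135 CPM in the 18 high-gate cells against 94.2 CPM in the 63 reference cells and Krt15 at 2994 CPM against 2056 CPM, with log2 ratios of 0.52 [-0.34, 1.36] and 0.54 [0.37, 0.71]. The large Sox2 and Krt15 ratios at P1 maxillary were thus not seen without the shared barcodes, while the P1 mandibular ratios of both, from which those barcodes were dropped, were larger.

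In high-gate cells the same omission left 18 cells, and 526 of 4226 genes were past 2-fold higher (12.4%) and 735 lower (17.4%), beside 456 and 760 of 4146 with the shared barcodes. Envelope genes other than Sprr1a were higher for 9 of 9 and desmosome genes for 9 of 11 both with and without them. Proteases and their inhibitors were higher for 15 of 16 (11 of 12 with them), surface proteins for 12 of 17 (15 of 18) and barrier lipid genes for 5 of 6 (4 of 5). Oral and dental identity factors were higher for 2 of 9 and lower for 3, where 4 of 11 were higher and 5 lower with them. Wnt genes were higher for 1 of 8 and lower for 4 (2 and 5 of 8). The simple keratins Krt7, Krt8 and Krt19 were higher with the shared barcodes. Without them Krt7 did not reach 50 CPM, and Krt8 was at 129 against 81.2 CPM and Krt19 at 129 against 117 CPM, both under 2-fold. Of the 3 simple keratins compared there, 0 were higher and 1, Krt18, was lower. Of the other named genes, Pax9 and Idi2 among the higher and Tbx1, Dlx3, Sp6, Susd4 and Kirrel3 among the lower did not reach 50 CPM in either unshared class.

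Lower genes shared by the comparisons were chosen by the lowest ratio of gate cells to reference over the libraries, and included Fgfr1, Tbx1, Col9a3, Frem1, Elmo1, Nell2, Susd4, Kirrel3, Adamts17 and Zfp521. Fgfr1, a fibroblast growth factor receptor, stood at 13.3, 0, 18.0 and 24.98 CPM in high-gate cells and 122, 214, 396 and 376 CPM in Krt5/Krt14 epithelium. Col9a3, a chain of collagen IX, stood at 2.85, 4.46, 5.53 and 2.08 CPM against 65.0, 87.1, 93.8 and 179 CPM. Every library had the lower level in high-gate cells for both. The higher genes chosen the same way, beside the 4 gate genes, were Clic3, Csta1, Fam25c, Idi2, Ly6d and Them5. Idi2, an isomerase of isoprenoid synthesis, stood at 207, 321, 130.0 and 152 CPM against 0.223, 0, 0.0757 and 0 CPM, and Clic3, an intracellular chloride channel protein, at 165, 531, 205 and 239 CPM against 1.12, 0.968, 2.04 and 3.01 CPM. In the unshared P1 maxillary cells Idi2 was 41.1 CPM.

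UMIs of division genes were found in high-gate cells. A UMI of Mki67 or Top2a, both made in cycling cells, was present in 24 of 78 high-gate cells at E15.5 maxillary (30.8% [20.8, 42.2], exact binomial), 0 of 8 at E15.5 mandibular (0% [0, 36.9]), 7 of 43 at P1 maxillary (16.3% [6.81, 30.7]) and 8 of 26 at P1 mandibular (30.8% [14.3, 51.8]). Krt5/Krt14 epithelium held 41.5%, 51.9%, 34.7% and 28.2%. How many of these UMIs were free RNA was not tested, so the shares are of cells with a UMI and not of dividing cells. High-gate cells had median depths of 19639.5, 20720.5, 13583 and 16571.5 UMIs. Cell division genes were lower than in the reference for 1 of 11, 7 of 8 and 5 of 6, and for 4 of 10 at P1 maxillary without shared barcodes (Cdk1, Cenpf, Hmmr and Mcm6). Top2a stood at 186, 0, 52.6 and 24.98 CPM against 240.3, 285, 218 and 104 CPM. In the 18 unshared P1 maxillary cells Top2a was 188 CPM, against 328 CPM in the unshared reference, and 5 of the 18 held a Mki67 or Top2a UMI (27.8% [9.69, 53.5]).

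Gate cells were mixtures of keratin combinations. Cells with at least 5 UMIs of Krt4 and Krt13 together and at least 5 of Krt6a numbered 118, 9, 72 and 30. Cells with Krt4 and Krt13 alone numbered 76, 3, 44 and 12, those with Krt6a alone 31, 2, 20 and 21, and 12, 4, 11 and 4 reached neither. Krt6a alone made up 13.1%, 11.1%, 13.6% and 31.3% of gate cells. Krt17, a keratin of appendages and of the periderm, had 2864, 919 and 5306 CPM in the cells with both, with Krt4 and Krt13 alone and with Krt6a alone at E15.5 maxillary, 1937, 802 and 7088 CPM at P1 maxillary and 1394, 3587 and 7040.0 CPM at P1 mandibular. Krt17 was highest in the Krt6a cells of each of the 3 libraries. Ly6d was highest in the cells with both, at 4276, 4694 and 5756 CPM, against 1119.5, 575 and 1418 CPM with Krt6a alone.

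The 21 P1 mandibular cells with Krt6a alone had another profile. Krt13 was at 1.999 CPM in them, 1 UMI in 1 cell. The class was defined by few Krt4 and Krt13 UMIs, which fixed this low level, so it is a description. Odam, a secreted protein of maturing ameloblasts and of the epithelium that seals gum to tooth, stood at 2339 CPM with UMIs in 14 of the 21 cells, and at 0 in the 30 cells with both keratin sets. Maf, a transcription factor, stood at 1652 CPM in them, with UMIs in 21 of 21 cells, against 34.6 CPM. Mindy4, a deubiquitinase, stood at 4307 CPM against 44.8 CPM, and the zinc transporter Slc39a8 at 378 CPM against 0. The P1 mandibular Krt5/Krt14 epithelium held Odam at 306 CPM, Maf at 768 CPM, Mindy4 at 649 CPM and Slc39a8 at 237 CPM. The 21 cells were thus above this mixed reference in all 4 genes. Levels in the 20 corresponding P1 maxillary cells were 96.2 CPM for Odam, in 1 cell, 439.6 CPM for Maf and 153 CPM for Mindy4. Because of Odam, Maf, Mindy4 and Slc39a8, and not of Krt13, the label oral lining was not used for the 21 mandibular cells. They are named here by Krt6a, Krt17 and Odam.

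**Figure D4:**
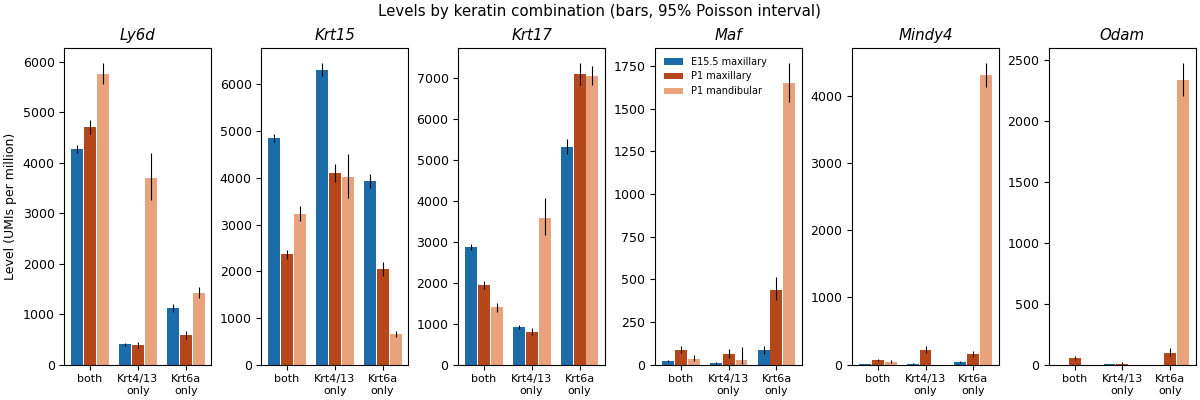
CPM levels of 6 genes (vertical axes from 0, 95% Poisson intervals) in gate cells with both Krt4 or Krt13 and Krt6a, with Krt4 or Krt13 alone, and with Krt6a alone, for 3 libraries. Odam and Mindy4 are highest in the 21 P1 mandibular cells with Krt6a alone, and Krt17 is highest in the Krt6a cells of all 3 libraries shown.

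The question of stage is whether the lining of P1 differed from that of E15.5, and the maxillary libraries can be compared for it. Over all gate cells 82 of 3640 genes were past 2-fold higher at P1 (2.25%) and 50 lower (1.37%). In high-gate cells 102 of 3482 were higher (2.93%) and 109 lower (3.13%). Without shared barcodes 187 of 3858 were higher (4.85%) and 65 lower (1.68%) over all gate cells, and 182 of 3689 higher (4.93%) and 138 lower (3.74%) in high-gate cells. The gate genes chose these cells, so their levels are a description. Krt13 stood at 14835, 38114, 18415 and 18980.3 CPM in high-gate cells and Krt6a at 5427, 6429.7, 6802 and 2579.7 CPM, and their log2 ratios of P1 to E15.5 were 0.31 [0.28, 0.34] and 0.33 [0.28, 0.37]. Of the envelope genes other than Sprr1a 0 of 9 and of the desmosome genes 0 of 11 were past 2-fold, with medians of 0.13 and 0.34 against -0.07 over all genes compared. Without shared barcodes 1 of 9, Tgm3 at 153 CPM, was past 2-fold higher at P1, and 0 of 11 desmosome genes.

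Krt4, Krt24 and Krt80 were past 2-fold higher in high-gate cells at P1, as was Krt10, the keratin of dry surfaces. Krt10 had a log2 ratio of 2.38 [2.06, 2.70] and of -0.19 [-1.35, 0.78] without shared barcodes, where Krt4 and Krt16 were the keratins of the wet lining list past 2-fold higher and Krt17 the one lower. Krt4 stood at 1438, 10879.6, 3839 and 8112 CPM, with a log2 ratio of 1.42 [1.34, 1.49] and of 1.04 [0.90, 1.18] without shared barcodes. Krt80 stood at 51.8, 75.8, 105 and 45.8 CPM and at 52.8 CPM in the unshared cells. Krt24, an acidic keratin, stood at 13.8, 66.9, 331 and 115 CPM, but the 18 unshared P1 maxillary cells had 0 UMIs of it. Fam25c stood at 244, 972, 553 and 608 CPM, with log2 ratios of 1.18 [0.99, 1.37] and 1.000 [0.65, 1.34]. Fam25c thus had the same direction in the unshared cells, just short of 2-fold, and Krt24 did not. Krt4 is a gate gene, and its values are a description. Its UMIs lay in few cells, since 3 cells held 61.5% of them among E15.5 maxillary gate cells and 59.4% among P1 maxillary ones. Serpinb2, a serpin of surface keratinocytes, stood at 34.7, 13.4, 105 and 91.6 CPM with log2 ratios of 1.60 [1.12, 2.08] and 1.61 [0.78, 2.37], and Klk13, a kallikrein, had 1.23 [0.65, 1.79] and 1.28 [0.25, 2.19].

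Metallothioneins bind zinc and copper, and Mt4 is the member made in stratified epithelium. Mt4 stood at 85.0, 379, 802 and 2399 CPM in high-gate cells and at 0, 0, 0.303 and 0.0589 CPM in the reference. Its log2 ratio of P1 to E15.5 was 3.24 [2.99, 3.49], and 1.501 [0.97, 1.998] without shared barcodes, where the level was 241 CPM. Mt3 stood at 28.5, 0, 159 and 471 CPM and was 5.87 CPM, 1 UMI, in the unshared cells. The same held for Tppp3, a microtubule protein, at 13.3, 13.4, 147 and 204 CPM and 11.7 CPM, and for Crip2, a LIM-domain protein, at 19.0004, 8.92, 112 and 135 CPM and 11.7 CPM. Crip1, a relative of Crip2, stood at 38.0, 62.4, 149 and 516 CPM and 52.8 CPM. In high-gate cells the higher P1 maxillary levels of Mt3, Tppp3 and Crip2 were thus not seen without the shared barcodes, and the P1 mandibular level was higher than the P1 maxillary one. Over all gate cells Mt3 was 13.8 CPM in unshared against 94.7 CPM in shared cells, but Tppp3 was 161 against 127 CPM and Crip2 98.7 against 115 CPM. The summed levels of both were thus high there without the shared barcodes too. Of the 75 unshared cells, 6 held the Tppp3 UMIs and 13 the Crip2 UMIs.

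Of the simple keratins 3 of 4 and of the division genes 7 of 8 were lower at P1 in high-gate cells, while Krt7 was higher (log2 1.01 [0.54, 1.46], and -0.21 [-1.56, 0.89] without shared barcodes). Krt8 stood at 243, 62.4, 59.5 and 2.08 CPM, Krt18 at 73.6, 8.92, 24.9 and 8.33 CPM and Krt19 at 215, 272, 67.8 and 41.6 CPM, all keratins of simple epithelia and the periderm. Their log2 ratios were -2.03 [-2.51, -1.58], -1.56 [-2.36, -0.86] and -1.67 [-2.12, -1.24], and -0.91 [-1.60, -0.30], -2.65 [-5.71, -0.77] and -0.74 [-1.42, -0.12] without shared barcodes, where Krt18 rests on 2 UMIs. Only Krt18 of these was past 2-fold without shared barcodes. Over all gate cells none of the 4 simple keratins was past 2-fold, with a summed log2 ratio of -0.11 [-0.22, 0.01], and without shared barcodes all 4 were past 2-fold higher at P1, with a sum at 1.54 [1.40, 1.67]. Unshared P1 gate cells held Krt19 at 732 CPM and Krt8 at 360.3 CPM, against 34.2 and 27.1 CPM in shared ones. In all gate cells without shared barcodes 5 of 6 gland and airway markers were past 2-fold higher at P1 too, namely Wfdc2, Krt7, Bpifa1, Foxj1 and Ltf, with a sum at 2.73 [2.58, 2.88], and with shared barcodes 3 of 5 were higher and 1 lower, with a sum at 1.05 [0.91, 1.19]. Krt7 is on both lists. The part of gland and airway cells in the simple keratin values was not tested. The direction of the simple keratins thus differed with the class of cells and with the shared barcodes. The summed list of division genes had a log2 ratio of -1.75 [-1.95, -1.56]. Without shared barcodes that sum was at -0.28 [-0.53, -0.05], and Mki67 stood at 109.7, 27.7 and 93.9 CPM in E15.5, all P1 and unshared P1 cells. In high-gate cells the lower division signal therefore rested on the shared barcodes. Over all gate cells 1 of 10 division genes was lower, and 1 of 11 without shared barcodes. Lsamp, a cell adhesion protein, was lower with and without them, at 184, 13.4, 29.0 and 77.0 CPM and 82.2 CPM, with log2 ratios of -2.67 [-3.37, -2.03] and -1.16 [-2.05, -0.40].

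**Figure D5:**
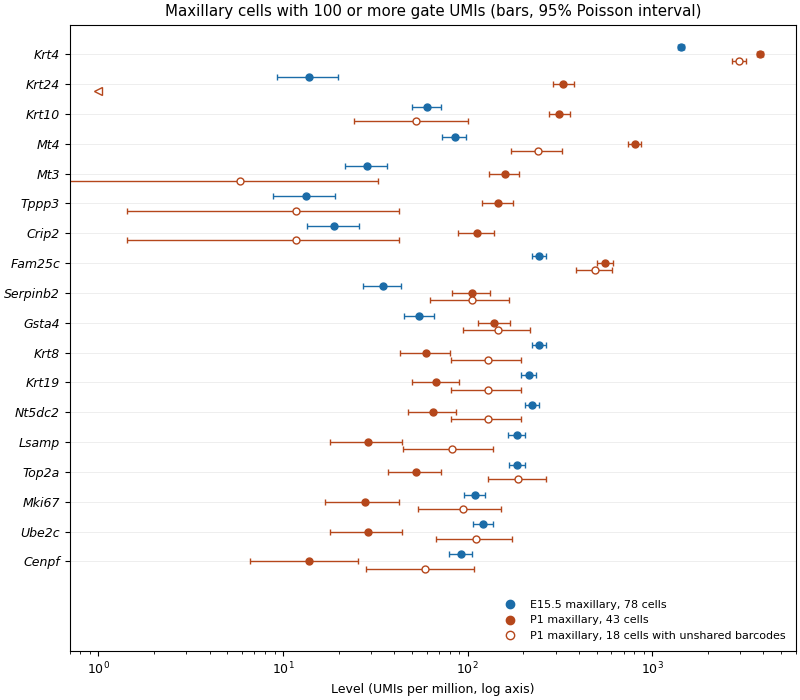
Levels of 18 genes in CPM on a log axis in maxillary high-gate cells, with 95% Poisson intervals, for E15.5 (78 cells, blue), all P1 cells (43, filled red) and the 18 P1 cells with unshared barcodes (open red); the triangle is a level of 0. Krt4, Fam25c, Serpinb2 and Gsta4 lie right of E15.5 in both P1 classes, whereas Krt24, Mt3, Tppp3 and Crip2 lie right of it, and the 4 division genes at the bottom well to its left, in the filled class alone.

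The genes of the largest stage differences over all gate cells were partly others. The higher ones were Crip1, Crip2, Ehf, Maf, Mindy4, Mt3, Mt4, Slc39a8, Tagln and Tppp3, and Maf, Mindy4, Slc39a8 and Tagln were below 20 CPM in high-gate cells at E15.5 and lower in high-gate cells than in all gate cells at P1. Tagln, an actin-binding protein, stood at 14.7, 11.4, 104 and 548 CPM in all gate cells and 4.28, 0, 2.77 and 4.16 CPM in high-gate ones. The lower ones were Cldn10, Hba-a1, Hba-a2, Hbb-bs, Hbb-bt, Igf2bp1, Lsamp, Ndufa4l2, Nt5dc2 and Slc16a10. Igf2bp1, an RNA-binding protein of embryonic tissue, stood at 62.8, 50.2, 26.1 and 15.2 CPM, and Ndufa4l2 at 1148, 1479.6, 486 and 264 CPM. In the unshared P1 maxillary cells Ndufa4l2 was 1109 CPM and Cldn10 91.8 CPM against 95.4 CPM at E15.5, so neither was lower past 2-fold there. Igf2bp1 was 39.0 CPM and not past 2-fold lower either, and of the 10 lower genes Lsamp and Slc16a10 were the 2 that stayed past 2-fold. Maf, Mindy4, Slc39a8 and Tagln were 13.8, 16.1, 9.18 and 27.5 CPM in the unshared cells, and their higher P1 maxillary levels came with the shared ones. The 4 globin genes are those of red blood cells. All 4 were past 2-fold lower at P1, and 0 of 4 without shared barcodes, where Hbb-bs was 4377 CPM against 30.6 CPM in shared cells. Of the 1907 Hbb-bs UMIs in unshared cells, 1 cell held 1066 and another 750. The globin level without shared barcodes thus rests on few cells. The part of red blood cell RNA in the result was not tested.

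Upper and lower molars at P1 differed in 261 of 3718 genes past 2-fold over all gate cells, 120 higher in the maxillary library (3.23%) and 141 higher in the mandibular one (3.79%). Without the shared barcodes 395 of 4059 were higher in the maxillary gate cells (9.73%) and 327 in the mandibular ones (8.06%), with a median log2 ratio of 0.11, and in high-gate cells with shared barcodes 143 of 3364 (4.25%) and 91 (2.71%). The library with more genes higher was thus the mandibular one over all gate cells and the maxillary one under both other choices. Krt5/Krt14 epithelium differed in 17 of 3798 genes higher (0.448%) and 36 lower (0.948%) in the maxillary library, but 843 of its 906 maxillary cells carried a shared barcode. With the 63 others alone, 352 of 4210 were higher (8.36%) and 457 lower (10.9%). Dcn, a matrix proteoglycan of fibroblasts, stood at 159, 50.2, 379.9 and 9.84 CPM, and at 122 CPM in the unshared maxillary cells. Pappa, a secreted protease, stood at 68.7, 0, 177 and 5.37 CPM. Bpifa1, Reg3g and Ltf, which encode secreted proteins of airway, gland and mucosal epithelium, stood at 89.7, 85.3 and 80.4 CPM in the maxillary cells. All their maxillary UMIs lay in unshared cells, 4, 11 and 7 of 75. None of the 3 had a UMI in high-gate cells at P1.

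Genes higher in the mandibular gate cells were Calb1, Gm17660, Krt79, Odam and Wfdc18. Odam stood at 0.217, 0, 47.8 and 1047 CPM, and 14 mandibular cells with Krt6a alone carried it. Krt79, a keratin of gland ducts and hair canals, stood at 57.4, 15.98, 3.26 and 113 CPM, and in the mandibular cells with Krt6a alone it came from 2 cells. Wfdc18, a small secreted protease inhibitor of glands, stood at 14.95, 0, 3.80 and 209 CPM, and 2 of the 12 mandibular cells with Krt4 and Krt13 alone gave 2622 CPM. Calb1, a calcium-binding protein of ameloblasts, stood at 0, 0, 2.72 and 61.7 CPM, far below its level in Krt5/Krt14 epithelium (0, 105, 1799 and 3702 CPM). Of the gate keratins, Krt4 stood at 682, 5608, 1618 and 3568 CPM. At P1 it was past 2-fold higher in the mandibular library (log2 -1.14 [-1.21, -1.07], and -1.30 [-1.42, -1.17] without shared barcodes). Krt6a was past 2-fold higher in the maxillary one (log2 1.03 [0.95, 1.11]). Both genes chose these cells, so their values are a description. The top 3 cells held 59.4% of the P1 maxillary Krt4 UMIs and 52.9% of the P1 mandibular ones. Nkx2-3, a homeobox gene of the pharyngeal and oral lining, stood at 50.4, 134, 8.30 and 137 CPM in high-gate cells with the higher levels of each stage in the mandibular library.

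Markers of other cell types were present in gate cells and are given beside the results they touch. The 9 erythroid markers summed to 12412, 36058, 2032 and 235 CPM, led by Hbb-bs in every library, with 234 of 237, 18 of 18, 95 of 147 and 63 of 67 cells holding a UMI. Immune cells held 17282, 12407, 5401 and 4787 CPM of the same genes. In the E15.5 mandibular library 1 cell held 66.9% of the erythroid UMIs. The 12 mesenchyme markers summed to 625, 349, 804 and 327 CPM, led by Sparc except in the P1 maxillary library, where Dcn led, and to 360, 138, 256 and 210.3 CPM in high-gate cells. Muscle markers summed to 360 CPM at E15.5 maxillary, with 86.0% of these UMIs in 1 cell, and to 11.4, 5.44 and 90.4 CPM elsewhere. The list of 9 ameloblast markers summed to 33.4, 34.2, 90.8 and 1326 CPM. At E15.5 Amer1 gave 31.0 and 34.2 CPM of these sums, and at P1 Odam gave 47.8 and 1047 CPM. In the E15.5 mandibular library 8 of the 9 genes had 0 UMIs, so the E15.5 sums describe Amer1 and not enamel genes. At P1 mandibular 10 cells with at least 20 such UMIs held 88.7% of the sum. Gland and airway markers summed to 205, 231, 425 and 423 CPM, led by Cldn10 at E15.5, Wfdc2 at P1 maxillary and Wfdc18 at P1 mandibular, and 9 P1 maxillary cells with at least 20 such UMIs held 62.1% of the third sum. Immune markers were at 98.4, 15.98, 9.78 and 19.7 CPM, endothelial ones at 16.5, 6.85, 71.2 and 46.5 CPM, and glial and melanocyte ones at 16.04, 18.3, 19.6 and 133 CPM. The top-scoring barcodes of Scrublet, a preset share of each library, included 5, 0, 6 and 3 gate cells (2.11%, 0%, 4.08% and 4.48%). Among all filtered cells the marked shares were 8.86%, 6.08%, 14.7% and 16.8%. The part of other cell types in the stage and jaw differences was not tested. In these pooled sums, fewer cells of a kind and less RNA per cell cannot be told apart.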

How the data were processed

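The values used were whole UMI counts per gene and cell barcode as the authors deposited them, made with Cell Ranger 7.0.1 per the submitters' processing notes against mouse build mm10, 1 filtered matrix for each of 4 libraries. Barcodes with at least 1000 UMIs and under 10% mitochondrial UMIs were kept, and P1 mandibular barcodes also held by the P1 maxillary library were dropped. Members were then chosen by the UMI rule given above. Immune cells, used as a background for free RNA, held at least 3 UMIs of Ptprc, Tyrobp and Fcer1g and none of Epcam or Cdh1.

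UMIs were summed over the cells of a class and given as counts per 1e6 UMIs, with exact Poisson 95% intervals. Log2 ratios carry exact binomial intervals, and a count of 0 in 1 class was set to a floor of 3 counts over that class. Each group is 1 library, so no test was run and no p-value is given. Genes were counted when past 2-fold and when the larger of both levels reached 50 CPM. The E15.5 mandibular library, with under 20 members, gave values but no counts of genes. Its values also entered the ranking by which stage genes were named. Counts from the 18 unshared P1 maxillary high-gate cells are given beside those of all 43, and rest on that few cells. Doublets were left in, and Scrublet in scanpy 1.11.5 marked its top-scoring barcodes, 0.8% for each 1000 barcodes of a library, for an alternative.

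Named genes were the members of the gene lists, the 10 with the largest ratio in each direction against Krt5/Krt14 epithelium (ranked by the smallest ratio over the libraries) and between stages (by the smaller of the 2 jaws), and the 5 in each direction between jaws. Ribosomal and mitochondrial genes were left out. Genes named by keratin combination or in high-gate cells were picked after their values were seen. The members and lists were chosen with earlier results of these data known. Python 3.11.15, numpy 2.4.6, scipy 1.17.1, pandas 2.3.3 and matplotlib 3.10.9 were used.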

Additional observations from a re-analysis of the deposited data

Results flagged for a closer look

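For 2 genes the levels in gate cells differed between stages in opposite directions in the upper and lower molar, and the difference was not tested. The log2 ratio of P1 to E15.5 for Dcn was 1.254 in the maxillary and -2.352 in the mandibular libraries, and for Krt79 it was -4.138 and 2.818. Without shared barcodes the maxillary ratio was -0.39 for Dcn, the same direction as in the mandibular libraries, and -4.65 for Krt79. The mandibular ratios rest on the 18 gate cells of E15.5.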

How the results depend on the processing

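The number of gate cells followed the limits. With at least 10 gate UMIs it was 181, 110 and 51 in the E15.5 maxillary, P1 maxillary and P1 mandibular libraries, with at most 3 collagen UMIs 172 at E15.5 maxillary and 51 at P1 mandibular, and with under 5% mitochondrial UMIs 122 at P1 maxillary. Leaving shared barcodes out left 75 at P1 maxillary. Both alternatives chosen after seeing the data gave 78, 8, 43 and 26 cells with at least 100 gate UMIs, and 194, 116 and 42 with at least 5 UMIs of Krt4 and Krt13, the latter without E15.5 mandibular.

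Genes past 2-fold numbered 132 for stage, 261 for jaw at P1 and 362, 822 and 824 against Krt5/Krt14 epithelium (E15.5 maxillary, P1 maxillary, P1 mandibular). At a minimum of 20 CPM they were 336, 638, 731, 1496 and 1483. Without shared barcodes they were 252 for stage and 722 for jaw. With at least 100 gate UMIs they were 211 for stage, 730 against the reference at E15.5 maxillary and 1363 at P1 mandibular, which was 1301 with at least 5 UMIs of Krt4 and Krt13. The share of stage genes that were higher at P1 was 62.1%, and 73.6% with at most 3 collagen UMIs, 74.2% without shared barcodes, 51.6% with at least 10 gate UMIs and 48.3% with at least 100. The share of jaw genes higher in the maxillary library was 46.0%, and 61.1% with at least 100 gate UMIs and 78.2% with at least 5 UMIs of Krt4 and Krt13. Other totals of these comparisons stayed within 1.5 times under the alternatives run, including scaling to a median log2 ratio of 0 and a mean over cells. Counts outside them could move more. Between jaws at P1, Krt5/Krt14 epithelium had 17 genes higher and 36 lower in the maxillary library, and 352 and 457 without shared barcodes. The summed levels of the 29 gene lists, P1 over E15.5, were less steady: 24 left their counting interval with a mean over cells, 23 without shared barcodes, 26 with at least 100 gate UMIs, 16 without the barcodes Scrublet marked, 16 with at most 3 collagen UMIs and 16 with at least 10 gate UMIs.

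After thinning each cell to 1000 UMIs, Cnfn was seen in 2.53%, 1.36% and 0% of cells instead of 9.28%, 8.84% and 1.49%, and Krt1 in 13.1%, 17.7% and 4.48% instead of 35.9%, 27.9% and 23.9%. The order of the maxillary libraries for Krt1 thus turned. Summed endothelial markers, P1 over E15.5, had a log2 ratio of 2.11, against -1.26 without shared barcodes and -1.10 with at least 100 gate UMIs, and summed gland and airway markers 1.05, against -0.62 with at least 100. Among P1 maxillary gate cells, 1 cell held 65.6% of the endothelial UMIs and 2 cells held 89.3%. The cause of these changes was not tested. No paired analysis was possible because each group is 1 library, and for the same reason no replicate could be left out.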

Other observations

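The E15.5 mandibular library held 18 gate cells, too few for counts of genes. Beside the E15.5 maxillary library, Krt4 stood at 5608 CPM against 682 CPM with 96.3% of the mandibular UMIs in 3 of the 7 cells that held any, and the transglutaminase Tgm3 at 205.5 CPM against 18.6 CPM. A single cell of the 18 held 78.9% of the Tgm3 UMIs. Mylpf, a myosin light chain of fast skeletal muscle, stood at 2.28 CPM against 274 CPM, and 97.4% of the maxillary UMIs lay in 1 cell. These single cells were kept. The E15.5 maxillary cell enters the comparisons of its library, where the muscle genes Actc1 and Myh3 were past 2-fold lower at P1 over all gate cells.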
